A study of Mus musculus with 6 samples.

Results

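The 10 genes described here encode the NF-kB transcription factor subunits (Rela, Relb, Rel, Nfkb1 and Nfkb2), the IkB proteins that hold them in the cytoplasm (Nfkbia, Nfkbib and Nfkbie), the ubiquitin-editing inhibitor A20 (Tnfaip3) and the catalytic IkB kinase subunit IKK beta (Ikbkb). They were chosen by symbol from a count table of 22740 protein-coding genes, and all 10 were found and had enough reads to be tested. RNA was sequenced from B16 cells, a mouse melanoma line whose genotype label is BRAFV600E-negative, in 3 libraries after the vehicle DMSO and 3 libraries after 1 uM CX-5461, each for 3 days. CX-5461 is a compound known to inhibit RNA polymerase I, which transcribes ribosomal RNA. The labels number the samples of each group 1 to 3 and do not say whether they came from separate cultures, so p-values measure only the spread between these samples. Libraries held 17573990 to 22908309 counts.

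NF-kB factors are dimers of 5 related proteins. In resting cells the IkB proteins mask them. In the canonical arm, receptors such as those for TNF and for bacterial products act through an IKK complex in which IKK beta marks the IkB proteins for destruction, and dimers of RELA, REL and p50 (made from Nfkb1) reach the nucleus. In the alternative arm, the kinase NIK (Map3k14) acts through IKK alpha (Chuk) to process the Nfkb2 product into p52, which pairs with RELB. Several of these genes, among them Nfkb2, Rel, Relb, Nfkbia and Tnfaip3, are known targets of NF-kB itself, and much of the pathway is set at the protein level, which RNA counts do not show.

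Promoter windows of the 250 bases before a RefSeq start (GRCm38.p6) were at hand for 7 of the 10 genes, and not for Relb, Nfkb1 and Ikbkb. The kappaB motif, which NF-kB dimers bind, was looked for in them, since several of these genes are known targets of their own products. The kappaB consensus decamer was GGGRNNYYCC (R for A or G, Y for C or T, N for any base). Searched on both strands with overlaps counted once for each position, it was present in 7 of the 10 windows of these genes. These windows, which include all those of Nfkb2, belonged to 5 of the 7 genes (Rel, Nfkb2, Nfkbia, Nfkbie and Tnfaip3). The decamer was present in 7.25% of the 32841 windows of all genes and for 8.24% of the 27018 genes with a window. The window of the third Nfkb2 start held it as GGGACTTTCC. The windows of Rela and Nfkbib and 1 of the Tnfaip3 windows (chr10:19011964-19012213, minus strand) held no match. Shown are the windows of 2 genes that were lower with CX-5461, Rel (chr11:23770970-23771219, minus strand) and the first start of Nfkb2 (chr19:46304487-46304736, plus strand), and of Nfkbia (chr12:55492648-55492897, minus strand), which did not pass the test. Capitals mark the matches, and the last base lies next to the start.
Rel: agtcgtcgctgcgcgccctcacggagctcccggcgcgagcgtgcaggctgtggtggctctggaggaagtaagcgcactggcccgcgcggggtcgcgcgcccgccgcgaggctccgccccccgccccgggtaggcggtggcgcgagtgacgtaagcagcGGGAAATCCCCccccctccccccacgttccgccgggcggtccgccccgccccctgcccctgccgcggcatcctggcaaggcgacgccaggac
Nfkb2: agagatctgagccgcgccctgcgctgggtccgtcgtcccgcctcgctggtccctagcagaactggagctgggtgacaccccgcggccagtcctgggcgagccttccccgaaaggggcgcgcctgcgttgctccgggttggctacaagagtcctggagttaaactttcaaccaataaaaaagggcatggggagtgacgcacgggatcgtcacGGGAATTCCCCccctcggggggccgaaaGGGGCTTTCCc
Nfkbia: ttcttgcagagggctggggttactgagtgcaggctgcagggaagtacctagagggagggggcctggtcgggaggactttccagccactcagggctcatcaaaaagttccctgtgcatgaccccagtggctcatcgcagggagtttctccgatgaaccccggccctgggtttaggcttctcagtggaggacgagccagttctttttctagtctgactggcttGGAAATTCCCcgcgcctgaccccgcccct
Rel held 2 overlapping matches, GGGAAATCCC and GGAAATCCCC, the first at 92 to 83 bases before the start. The Nfkb2 window held GGGAATTCCC at 39 to 30 bases and GGGGCTTTCC at 11 to 2 bases before the start, besides GGAATTCCCC, which overlaps the first of these. Nfkbia held GGAAATTCCC at 29 to 20 bases before its start. A match describes these letters and does not show that a factor binds there.

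With CX-5461, Rel and Relb fell 1.97-fold and 1.96-fold, Nfkb2 1.39-fold, Nfkbie 1.27-fold, Nfkbib 1.26-fold and Rela 1.15-fold. Ikbkb rose 1.36-fold and Nfkb1 1.33-fold. Nfkbia and Tnfaip3 missed the threshold. In all, 2 of the 10 genes were higher and 6 lower at an adjusted p below 0.05 (edgeR quasi-likelihood test, Benjamini-Hochberg over 12198 genes). Of all genes tested, 73.7% were called, 37.2% as higher and 36.5% as lower, so 8 calls among 10 genes lies near the background. The median log2 change of the 10 genes was -0.34, beside -0.005 over all tested genes. For 8 of the 10 genes no library of one group lay within the range of the other, as for 76.2% of all tested genes. These are bulk libraries, in which fewer cells with a transcript and less of it per cell cannot be told apart. The library CX-5461 replicate 2 was set apart from its group by the second principal component, with 2.83% of the variance. Without it the counts were again 2 higher and 6 lower.

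**Figure D1:**
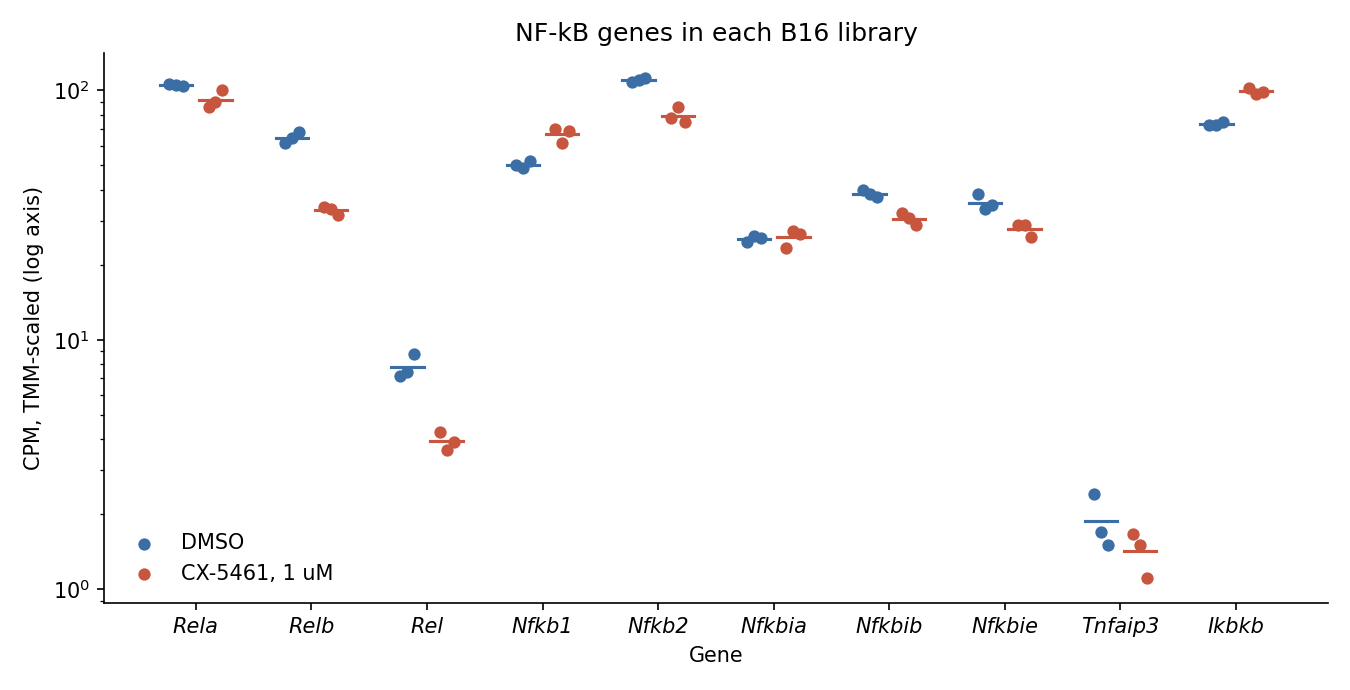
Scaled read level (CPM, scaled to library totals times TMM factors, log axis) of the 10 genes in each library, with DMSO in blue and 1 uM CX-5461 in red; each point is 1 library and each line the mean of 3. The groups part for Rela, Relb, Rel, Nfkb1, Nfkb2, Nfkbib, Nfkbie and Ikbkb and overlap for Nfkbia and Tnfaip3.

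Relb and Rel showed the largest changes among the subunits. Relb (ENSMUSG00000002983, chromosome 7, 19606217 to 19629438, GRCm38) encodes the partner of p52 in the alternative arm. Its level was 61.6, 64.2 and 68.3 CPM in the DMSO libraries and 33.9, 33.5 and 31.5 CPM in the CX-5461 libraries. Every CX-5461 library was thus below every DMSO library by a wide margin, and those of CX-5461 lay close together. Relb fell 1.96-fold, a log2 change of -0.97 ± 0.06 (SE, n = 3 per group; edgeR adjusted p = 9.876e-10). Of all tested genes, 83.4% had a smaller absolute change.

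Rel (ENSMUSG00000020275, chromosome 11, 23736847 to 23770970) encodes c-Rel, a subunit best known from lymphocytes. It was the least abundant subunit, with 7.16, 7.43 and 8.77 CPM in DMSO, from 131 to 157 reads per library, and 4.28, 3.62 and 3.89 CPM with CX-5461, from 63 to 95 reads. The groups did not overlap. The log2 change was -0.98 ± 0.14 (edgeR adjusted p = 8.934e-06), a 1.97-fold fall. Its SE was larger than that of Relb, and the 95% interval ran from -1.26 to -0.69.

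Nfkb2 (ENSMUSG00000025225, chromosome 19, 46304320 to 46312385) encodes p100, the precursor of p52 that also acts as an inhibitor. It stood at 108.4, 109.8 and 112.1 CPM in DMSO and at 77.5, 85.7 and 74.4 CPM with CX-5461. The DMSO libraries were nearly equal, and the highest CX-5461 library, replicate 2, was still well below them. Nfkb2 fell 1.39-fold (log2 -0.48 ± 0.06, edgeR adjusted p = 1.312e-06). Exons of Nfkb2 overlap those of Psd and of a noncoding RNA on the opposite strand, and whether counting used strand is not given in the sources used. Psd itself held 3.46 ± 0.392 CPM in DMSO and 2.00 ± 0.197 CPM with CX-5461 (SD, n = 3), far less than Nfkb2. The noncoding RNA shares more exonic bases with Nfkb2 (531, against 299 for Psd) and is not among the protein-coding genes counted. The part of either in the Nfkb2 value was not tested.

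Rela (ENSMUSG00000024927, chromosome 19, 5637483 to 5648130) encodes p65, the main activating subunit of the canonical arm. Its level was 105.8, 104.9 and 104.5 CPM in DMSO, and 85.7, 89.6 and 99.9 CPM with CX-5461. The groups did not overlap, although CX-5461 replicate 3 came close to the DMSO libraries. The log2 change was -0.20 ± 0.06 (edgeR adjusted p = 0.005379), a 1.15-fold fall, and 27.9% of tested genes had a smaller absolute change. This call ended once an offset corrected for each gene's genomic span (log2 -0.115, adjusted p = 0.06815, between 0.0004136 and 0.06815 over 17 alternatives).

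Nfkb1 (ENSMUSG00000028163, chromosome 3, 135584655 to 135691547), the gene of p105 and p50, moved the other way. It was at 50, 48.7 and 52.1 CPM in DMSO and at 69.8, 61.5 and 68.4 CPM with CX-5461, so that each CX-5461 library was above each DMSO library. Nfkb1 rose 1.33-fold (log2 0.41 ± 0.06, edgeR adjusted p = 1.542e-05). It spans 106.9 kb, the longest of the 10 genes. With the genomic span offset its log2 change was 0.17 (adjusted p = 0.008706, between 5.358e-08 and 0.0129 over 17 alternatives), and it was called as higher under all 17.

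**Figure D2:**
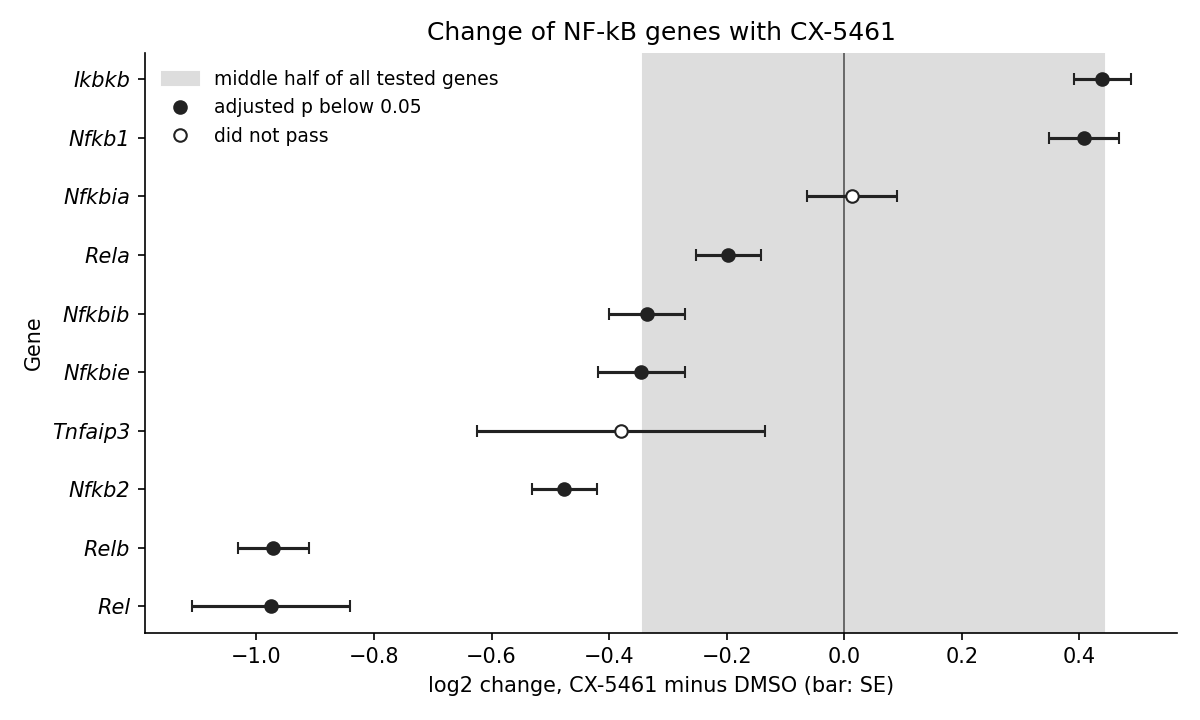
Log2 change of each gene (CX-5461 minus DMSO, points) with its SE (bars); filled points passed at an adjusted p below 0.05 and the grey band runs between the quartiles of all tested genes, -0.34 and 0.44. Relb and Rel stand apart at -0.97 and -0.98, Nfkb1 and Ikbkb are above 0, and Nfkbia lies at 0.01.

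Since 5 subunits share a limited set of dimers, their levels were also set against each other. Per kb of mRNA (the longest principal transcript of the annotation), Rela was the most abundant in DMSO at 38.7 ± 0.253 CPM per kb (SD, n = 3), followed by Nfkb2 at 35.1 ± 0.599, Relb at 29.3 ± 1.52, Nfkb1 at 12.2 ± 0.417 and Rel at 1.04 ± 0.115. None of these neighbours overlapped in DMSO. With CX-5461 Rela was again first at 33.8 ± 2.70 CPM per kb and Nfkb2 second at 25.2 ± 1.86, without overlap. Nfkb1 at 16.2 ± 1.08 and Relb at 14.9 ± 0.589 came next and overlapped, and Rel was last at 0.527 ± 0.0441. Relb and Nfkb1, which were far apart in DMSO, thus overlapped with CX-5461. On the same scale Ikbkb stood between Relb and Nfkbib in DMSO at 20.5 ± 0.386 CPM per kb, and with CX-5461 between Rela and Nfkb2 at 27.8 ± 0.815, overlapping Nfkb2. Tnfaip3 was the lowest of the 10 genes, at 0.422 ± 0.107 and 0.322 ± 0.0642 CPM per kb.

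As a share of the subunit reads per kb of mRNA, Relb made up 24.4%, 25.2% and 26.0% in the DMSO libraries and 17.2%, 16.7% and 15.5% in the CX-5461 libraries. For Nfkb1 the shares were 10.6%, 10.3% and 10.6% against 19.0%, 16.4% and 18.1%. Those of Rela were 34.0%, 33.5% and 32.4% against 35.4%, 36.3% and 40.0%, and Nfkb2 held 30.1 ± 0.134% and 27.8 ± 2.12% (SD, n = 3), with CX-5461 replicate 2 at 30.0% inside the DMSO range. The shares are not corrected for genomic span, and with the span offset the log2 rise of Nfkb1 was smaller (0.168 against 0.408). The groups did not overlap for the shares of Relb, Nfkb1, Rela and Rel. With 3 libraries against 3, an exact two-sided permutation test cannot go below p = 0.1, the value found for these 4 shares (0.115 after Benjamini-Hochberg adjustment over 15 ratios and shares).

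**Figure D3:**
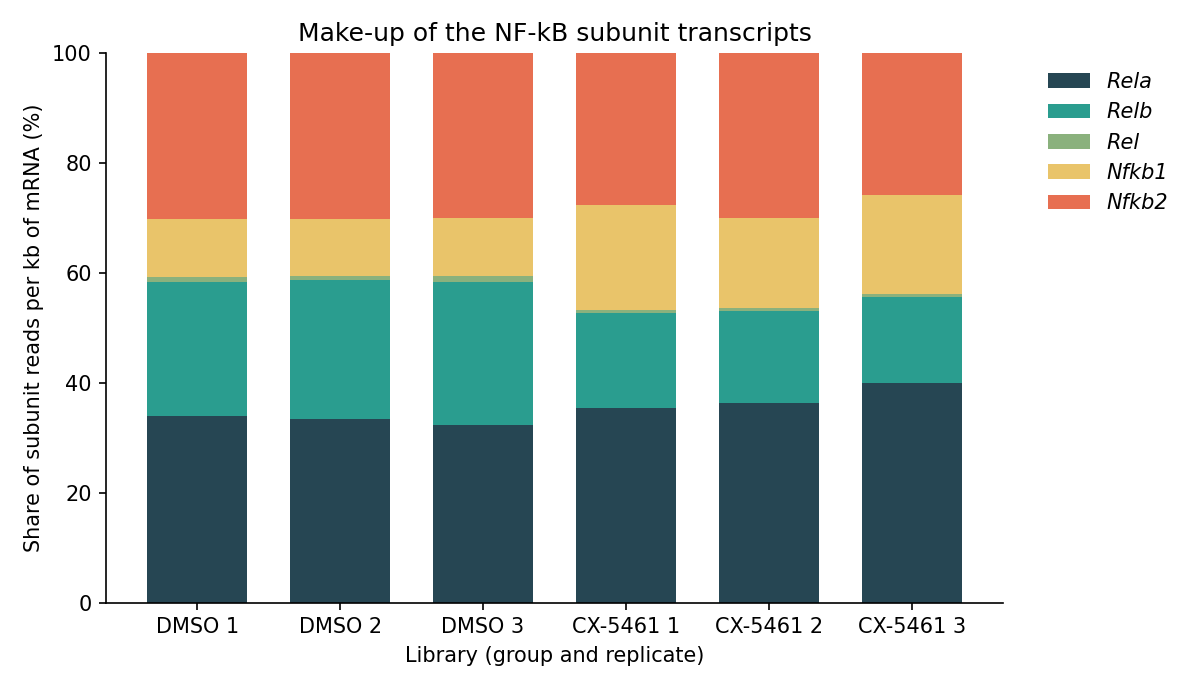
Share of each of the 5 subunit genes among their reads per kb of mRNA (stacked to 100%) in each library. Relb (teal) is narrower in the CX-5461 libraries (15.5% to 17.2%) than in DMSO (24.4% to 26.0%) and Nfkb1 (yellow) is wider.

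Ratios of reads within a library do not depend on how libraries are scaled to each other. The 4 pairs plotted were chosen after values had been seen. There were 0.582, 0.611 and 0.654 Relb reads per Rela read in DMSO and 0.396, 0.374 and 0.315 with CX-5461. Nfkb2 reads per Nfkb1 read were 2.17, 2.26 and 2.15 in DMSO and 1.11, 1.39 and 1.09 with CX-5461, so the mean was 1.83-fold lower. Of these CX-5461 values, that of replicate 2 was the highest. Nfkb2 spans 8.066 kb and Nfkb1 106.9 kb, and a ratio of reads does not correct for span. With the genomic span offset the log2 change was -0.401 for Nfkb2 and 0.168 for Nfkb1, against -0.476 and 0.408 without it. Rel reads per Rela read averaged 0.0741 ± 0.00863 and 0.0431 ± 0.00596 (SD, n = 3). In each of these 3 pairs the groups did not overlap (exact permutation p = 0.1, the smallest possible).

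**Figure D4:**
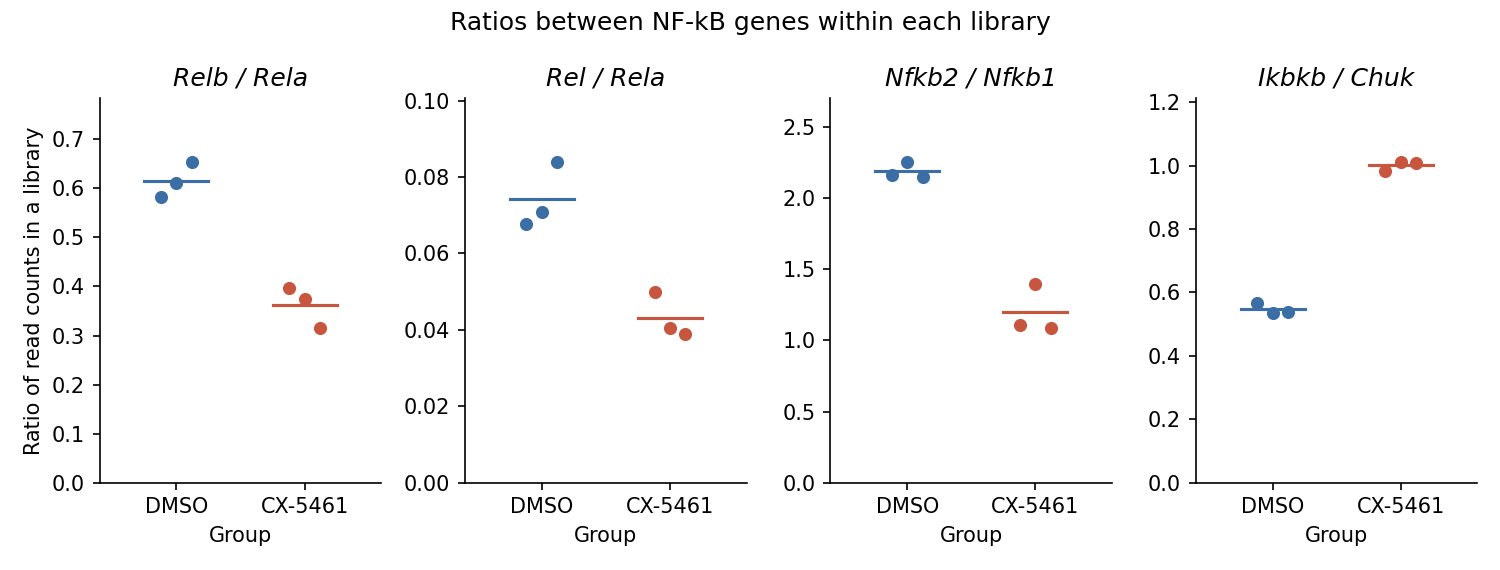
Reads of a gene per read of another in the same library (linear axes from 0), each point 1 library and each line the mean of 3. Relb per Rela, Rel per Rela and Nfkb2 per Nfkb1 are lower in all CX-5461 libraries, and Ikbkb per Chuk is higher (0.984 to 1.01 against 0.535 to 0.568).

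The inhibitors did not move as a group. Nfkbia (ENSMUSG00000021025, chromosome 12, 55489410 to 55492647) encodes IkB alpha, the fast-acting inhibitor whose transcript is a standard readout of NF-kB activity. It was at 24.7, 25.97 and 25.5 CPM in DMSO and at 23.3, 27.4 and 26.4 CPM with CX-5461. The DMSO libraries lay within the range of the CX-5461 libraries. Its log2 change was 0.01 ± 0.08 (edgeR adjusted p = 0.8843), with a 95% interval of -0.15 to 0.18, and its sign turned with library totals only (-0.06).

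Nfkbib (ENSMUSG00000030595, chromosome 7, 28758251 to 28767512), which encodes IkB beta, was at 39.9, 38.3 and 37.4 CPM in DMSO and at 32.2, 30.7 and 28.7 CPM with CX-5461. It fell 1.26-fold (log2 -0.34 ± 0.07, edgeR adjusted p = 0.0002487), with no overlap between groups. On the opposite strand, 314 exonic bases of Nfkbib overlap Ccer2 and 42 overlap Sirt2. Ccer2 had no read in DMSO and 0.0492 CPM with CX-5461. Sirt2 was at 117.5 ± 3.39 CPM in DMSO and was lower as well, at 85.1 ± 3.01 CPM with CX-5461, and its part in the Nfkbib value was not tested.

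Nfkbie (ENSMUSG00000023947, chromosome 17, 45555703 to 45563169), the gene of IkB epsilon, was at 38.5, 33.4 and 34.6 CPM in DMSO and at 29.0, 28.8 and 25.9 CPM with CX-5461. It fell 1.27-fold (log2 -0.35 ± 0.07, edgeR adjusted p = 0.0005966). No CX-5461 library reached the lowest DMSO library. Per kb of mRNA the 3 IkB genes stood in the order Nfkbib (18.7 ± 0.606 CPM per kb), Nfkbia (16.1 ± 0.409) and Nfkbie (14.6 ± 1.11) in DMSO, the latter pair overlapping. With CX-5461 the order was Nfkbia (16.3 ± 1.36), Nfkbib (14.8 ± 0.838) and Nfkbie (11.5 ± 0.702), with overlap between Nfkbia and Nfkbib. The summed IkB reads per kb were 0.425 ± 0.0181 of the summed subunit reads per kb in DMSO and 0.470 ± 0.0179 with CX-5461 (SD, n = 3; exact permutation p = 0.1).

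Tnfaip3 (ENSMUSG00000019850, chromosome 10, 19000910 to 19015657) encodes A20, a feedback inhibitor that acts upstream of the IKK complex. It had only 22 to 44 reads per library, or 2.40, 1.69 and 1.51 CPM in DMSO and 1.67, 1.496 and 1.11 CPM with CX-5461. The groups overlapped. The log2 change was -0.38 ± 0.25 (edgeR adjusted p = 0.174), and its 95% interval of -0.90 to 0.14 holds both a fall as large as that of Nfkb2 and no change.

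Ikbkb (ENSMUSG00000031537, chromosome 8, 22659212 to 22706589), which encodes IKK beta, was at 72.5, 72.6 and 74.9 CPM in DMSO and at 102.6, 97.1 and 98.3 CPM with CX-5461. Both groups were tight and well apart. Ikbkb rose 1.36-fold (log2 0.44 ± 0.05, edgeR adjusted p = 6.988e-07). Chuk, the gene of its partner IKK alpha and named here after its values were seen, was at 127.6, 135.6 and 139.5 CPM in DMSO and at 104.3, 96.0 and 97.4 CPM with CX-5461, a log2 change of -0.44 ± 0.05 (edgeR adjusted p = 1.674e-06). The reads of the kinase genes therefore went from 0.547 ± 0.0183 Ikbkb reads per Chuk read in DMSO to 1.00 ± 0.0151 with CX-5461 (SD, n = 3; exact permutation p = 0.1). The scaffold of the complex, Ikbkg (NEMO), also named after its values were seen, was at 95.1 ± 2.39 and 94.9 ± 3.32 CPM (edgeR adjusted p = 0.9702).

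The rest of the pathway was described from 7 further lists with 115 genes, of which 80 were tested, 30 were higher, 36 lower and 14 missed the threshold. Over all tested genes 73.7% were called, 37.2% as higher and 36.5% as lower, so these calls lie near the background. Their median log2 change was -0.04. Among 11 kinases and adaptors of the IKK complex and the alternative arm, 2 were higher and 7 lower, 2 missed the threshold, and the median was -0.29. With library totals only, 1 was higher. Map3k14, which encodes NIK, the kinase that starts the alternative arm, was at 36.8, 37.6 and 39.0 CPM in DMSO and at 12.6, 13.8 and 12.99 CPM with CX-5461. It fell 2.89-fold (edgeR adjusted p = 4.589e-11), more than Relb or Nfkb2. Tab2, an adaptor of the kinase TAK1, fell 2.24-fold (edgeR adjusted p = 3.537e-12). Ikbke, the gene of an IKK relative that also serves interferon induction, rose 2.08-fold, from 32.8 ± 1.34 to 68.2 ± 1.02 CPM (edgeR adjusted p = 1.427e-10).

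Of 18 atypical IkB proteins and other inhibitors 16 were tested, and their median log2 change was -0.35. Of the 16, 3 were higher, 10 lower and 3 missed the threshold, beside 37.2% higher and 36.5% lower over all tested genes. Tnip2, an A20-binding inhibitor, fell 1.82-fold (edgeR adjusted p = 5.181e-09), and Nfkbiz, a nuclear IkB protein, fell 1.61-fold (edgeR adjusted p = 4.076e-05). Tnip1, which encodes another A20-binding protein, rose 1.56-fold, from 87.1 ± 1.01 to 135.9 ± 4.87 CPM (edgeR adjusted p = 6.956e-09). The nuclear IkB gene Bcl3, named after its values were seen, is a partner of p50 and p52. It fell from 4.37 ± 0.947 to 1.37 ± 0.303 CPM, by -1.65 ± 0.22 on the log2 scale (edgeR adjusted p = 6.288e-06).

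All 7 genes listed for the ubiquitin ligase that destroys IkB proteins, conjugating enzymes included, passed, beside 73.7% of all tested genes. Of the 7, 5 were higher and 2 lower, with a median of 0.15. The number of higher calls was 3 with library totals only, at an adjusted p below 0.01 and without DMSO replicate 2. Btrc, which encodes a substrate receptor of the ligase, rose 1.66-fold, from 30.1 ± 1.30 to 50.1 ± 2.55 CPM (log2 0.735, edgeR adjusted p = 4.574e-08). With the genomic span offset the log2 change of Btrc was 0.177 (adjusted p = 0.01277, between 3.243e-19 and 0.01681 over 17 alternatives). Fbxw11, which encodes a related substrate receptor and is named after its values were seen, rose less. It went from 145.6 ± 4.28 to 161 ± 6.38 CPM (log2 0.145, edgeR adjusted p = 0.01131). Per kb of mRNA it was above Btrc in DMSO, at 36.2 against 10.1 CPM. The ubiquitin-conjugating enzyme gene Ube2d3 fell 1.41-fold and the scaffold gene Cul1 fell 1.29-fold (edgeR adjusted p = 6.235e-07 and 8.636e-07).

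**Figure D5:**
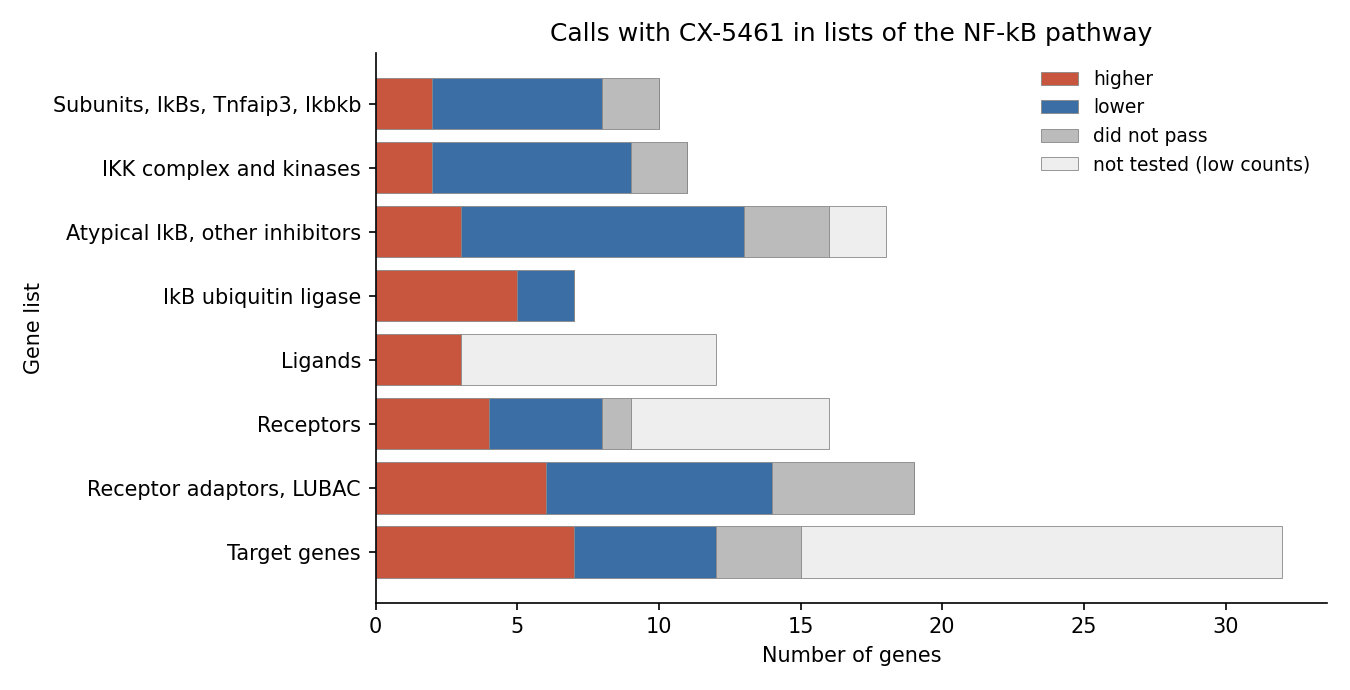
Number of genes in each list that were called higher (red) or lower (blue) in the CX-5461 libraries (adjusted p below 0.05), did not pass (grey) or had too few reads to be tested (pale). Lower calls outnumber higher ones in the top 3 lists and among the receptor adaptors (8 lower, 6 higher). Higher calls outnumber lower ones for the IkB ubiquitin ligase (5 and 2), the ligands (3 and 0) and the target genes (7 and 5). Receptors had 4 of each. Over all tested genes 37.2% were higher and 36.5% lower. Of the ligands 9 of 12 and of the target genes 17 of 32 were not tested.

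Ligands were mostly at very low counts, and 3 of 12 were tested. These 3 were called higher, but Il33 passed the filter on low counts only through the CX-5461 libraries, so their count is no measure of the ligands as a whole. Il18, the most abundant, was at 7.60, 7.53 and 8.49 CPM in DMSO and at 8.38, 12.8 and 10.97 CPM with CX-5461, with overlapping groups (log2 0.44 ± 0.14, edgeR adjusted p = 0.01119). That call ended without CX-5461 replicate 2 (0.05071). Tnf, named after its values were seen, had 6 to 10 reads per DMSO library and 2 to 5 per CX-5461 library and was not tested, and Il1b had no read in any library. Of 16 receptors 9 were tested, with 4 higher, 4 lower and 1 not passed, beside 73.7% called over all tested genes. Of those higher, Tnfrsf1b passed the filter on low counts only through the CX-5461 libraries. The number of lower calls was 2 without DMSO replicate 1 or 3, at an adjusted p below 0.01 and with the genomic span offset. Eda2r, a receptor for ectodysplasin A2, rose from 0.743 ± 0.102 to 6.51 ± 0.905 CPM (8.81-fold, edgeR adjusted p = 1.711e-09). Tlr3, the endosomal receptor for double-stranded RNA, rose 2.10-fold. Tnfrsf12a, the receptor for TWEAK and an activator of the alternative arm, fell 1.68-fold, from 223.2 ± 1.95 to 132.7 ± 7.76 CPM (edgeR adjusted p = 1.676e-09).

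Among 19 receptor adaptors and genes of the linear ubiquitin ligase, 6 were higher and 8 lower, 5 missed the threshold, and the median was -0.18. Over all tested genes 73.7% were called. Birc2, which encodes cIAP1, a ubiquitin ligase that keeps NIK unstable, fell 1.86-fold, from 61.5 ± 0.938 to 33.1 ± 2.00 CPM (edgeR adjusted p = 2.206e-09). Traf6, the adaptor for IL-1 and Toll-like receptors, fell 1.59-fold, and Ticam1, the adaptor of TLR3, fell 1.34-fold (edgeR adjusted p = 3.004e-08 and 6.179e-06). Traf3, which brings NIK to that ligase and is named after its values were seen, rose by 0.31 ± 0.05 (log2) from 90.3 ± 2.00 CPM (edgeR adjusted p = 7.088e-05).

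Known NF-kB target genes went both ways. Of 32, 15 were tested, and their median log2 change was 0.26. Of the 15, 7 were higher, 5 lower and 3 missed the threshold, near the 37.2% higher and 36.5% lower over all tested genes. The chemokine gene Cxcl10, which is also driven by interferon, was at 169.1, 171.1 and 218.8 CPM in DMSO and at 20.6, 22.9 and 22.5 CPM with CX-5461, an 8.48-fold fall (edgeR adjusted p = 2.888e-13). Cx3cl1, which encodes fractalkine, fell 3.02-fold (edgeR adjusted p = 3.337e-07). Plau, the gene of urokinase, had 6 to 7 reads per library in DMSO and passed the filter on low counts only through the CX-5461 libraries, so its direction was fixed by that filter. Its level was 0.336 ± 0.0512 CPM in DMSO and 5.07 ± 0.224 CPM with CX-5461 (SD, n = 3). Among targets named after their values were seen, the chemokine gene Ccl5 fell by 0.98 on the log2 scale and Irf1 rose by 0.60 ± 0.08.

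By Pearson correlation of log2 CPM over the 6 libraries, the genes most like Rel, the member with the largest change, were Usp33, Zik1 and Trim23 (r = 0.998 for each). The 6 libraries are 2 treatment groups, and 4083 tested genes had an absolute r above 0.95 with Rel.

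The label of a melanoma line held, with all 7 melanocyte markers present at a summed 22080 to 22930 CPM in DMSO and 28250 to 30560 CPM with CX-5461. Leukocytes are rich in several NF-kB transcripts. Of their 8 markers 2 were tested, Itgam and Cd3e had no read in any library, and Ptprc had none in DMSO and a mean of 0.0192 CPM with CX-5461. Their summed level, most of it Cd68, was 11.3 to 12.2 CPM in DMSO and 15.7 to 17.9 CPM with CX-5461. Cd68, at 10.6 and 12.3 CPM, did not pass (edgeR adjusted p = 0.06282), whereas Lyz2 was called higher, at 0.871 ± 0.561 and 4.20 ± 0.916 CPM (edgeR adjusted p = 9.992e-06). However, Lyz2 passed the filter on low counts only through the CX-5461 libraries, so its call is no measure of leukocytes. The 5 fibroblast markers summed to 12.5 to 16.5 and 30.9 to 34.4 CPM, most of the latter from Col1a2, which rose 11.4-fold, with Dcn and Lum below 0.1 CPM in their means. The other tested fibroblast markers, Col1a1 and Pdgfra, fell 2.46-fold and 1.29-fold. Those of endothelium and keratinocytes stayed below 0.3 CPM in sum. The part of other cells in the changes above was not tested.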

How the data were processed

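The authors deposited whole-number counts of reads per protein-coding gene, not normalized, for 6 libraries. Per the submitters' processing notes the builds were GRCm38 and mm10; aligner, counter and use of strand are not given in the sources consulted. Genes were kept by filterByExpr (minimum count 10), which left 12198, scaled by TMM and tested with edgeR 4.0.16 (R 4.3.3; quasi-likelihood, treatment only, two-sided), with Benjamini-Hochberg adjustment over all of them. SE was computed as the log2 change over the root of F. Positions and mRNA lengths come from GENCODE M21 (GRCm38), which matched 21842 of 22740 identifiers, and promoters from RefSeq. edgeR, DESeq2 and limma-voom were also run on simulated counts of 12113 genes, with 50 genes changed at each of 1.25, 1.5, 2 and 4-fold. Of these, edgeR recovered 32, 43, 49 and 50, and 15 of its 189 calls were false. Far fewer genes changed there than were called here, so scaling under such wide change was not checked.

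The members, the lists and the genomic span offset were chosen with earlier results of these data known. All 10 members are named. From each list the 3 called genes of largest change, with at least 5 CPM in the higher group and groups apart, are named, or the most abundant one. The alternatives were RLE, upper-quartile or no factors, no filter, 1 CPM in 3 libraries, DESeq2 1.42.0, limma-voom (limma 3.58.1), a replicate block, the span offset with and without that block, an adjusted p of 0.01 and each library left out.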

Additional observations from a re-analysis of the deposited data

How the results depend on the processing

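The counts of 2 members higher and 6 lower held under all 17 alternatives, except that 5 were lower with the genomic span offset, with or without the replicate block, where Rela did not pass (-0.115 and -0.118). Of 170 member values, 163 kept their direction and their side of the threshold. Besides Rela, 5 values were sign changes of Nfkbia, which never passed: -0.06 with library totals only, -0.003 with no filter, and a range of -0.038 to 0.077 when single libraries were left out. The causes of these changes were not tested. Over all tested genes 8986 were called, with 7855 to 9472 over the alternatives. With library totals only, the median of all genes was -0.0785 and 43.8% of calls were higher, against 50.5%. No pairing by replicate number was seen: same-numbered deviations correlated at 0.036, 0.004 and -0.008, and others at -0.04 to 0.035. These values do not show whether the samples were handled as pairs. With the replicate block 9000 genes were called, 2 members higher and 6 lower. In the other lists 30 genes were higher and 36 lower, and 30 and 35 with the block. Tnfaip3 had 22 to 44 reads per library, and 9 of 12 ligands had too few to be tested. The floor of 3 counts equals 0.135 to 0.173 CPM, for counting error only.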
